A study of Mus musculus with 6 samples.

Results

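Akt1 and Akt2, the regulatory subunits Pik3r1 and Pik3r3 and the catalytic subunit Pik3ca of phosphoinositide 3-kinase (Pi3k), and the adaptors Irs1, Irs2 and Grb2 were followed in denervated mouse muscle. All probes that the platform annotation assigns to these 8 genes were taken, which gave 11 of the 25697 probes on the array, and each probe was read separately. In adult male mice the left sciatic nerve had been interrupted by removing a segment, and the gastrocnemius (GA) muscle was taken 14 days later, with the GA muscle of the still innervated right leg as control. Each group held 3 samples, and every sample was read on its own Illumina mouse bead array. The sources used here give no strain, genotype or transgene, and do not state the number of mice. The p-values therefore measure sample-to-sample spread, which may be partly technical. The right muscle belongs to an operated animal and is not a muscle of an unoperated mouse.

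Insulin and insulin-like growth factor 1 (IGF-1) act on muscle fibers through receptor tyrosine kinases. The activated receptor phosphorylates the docking proteins Irs1 and Irs2, which recruit Pi3k, an enzyme made of a regulatory and a catalytic subunit, while the adaptor Grb2 links the same receptors to Ras. Pi3k makes the lipid PIP3 at the membrane, and PIP3 brings Akt to its activating kinase Pdpk1. In skeletal muscle Akt is known for stimulating protein synthesis and glucose uptake and for keeping Foxo transcription factors, which switch on atrophy genes, out of the nucleus. Akt activity is set by phosphorylation, which an mRNA array does not measure.

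The promoters of the pair of genes that rose are shown because these are the members with a called rise. The sequences are the 250 bases before a transcription start in the RefSeq table of mouse assembly GRCm38.p6, 5′ to 3′ on the strand of the gene. Capitals mark E-boxes, the motif CANNTG, which matches on both strands at once and is known to be bound by myogenic factors such as myogenin. The first of 4 Akt2 starts in that table follows chr7:27591302-27591551 (plus strand), and the first of 3 Pik3r3 starts follows chr4:116221166-116221415 (plus strand).
Akt2: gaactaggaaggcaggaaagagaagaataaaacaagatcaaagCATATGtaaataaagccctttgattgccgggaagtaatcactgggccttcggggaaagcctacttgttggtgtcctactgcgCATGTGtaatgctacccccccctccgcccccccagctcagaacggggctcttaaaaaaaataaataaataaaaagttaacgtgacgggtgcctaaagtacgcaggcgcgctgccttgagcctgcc
Pik3r3: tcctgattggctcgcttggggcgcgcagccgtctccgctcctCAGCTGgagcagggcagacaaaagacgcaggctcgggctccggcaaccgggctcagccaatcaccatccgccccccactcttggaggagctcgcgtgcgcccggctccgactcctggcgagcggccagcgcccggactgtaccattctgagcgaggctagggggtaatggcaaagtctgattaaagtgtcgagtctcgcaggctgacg
The Akt2 window held CATATG, beginning 207 bases before the start, and CATGTG, beginning 125 bases before it. The Pik3r3 window held CAGCTG, beginning 208 bases before its start. All 8 genes were in the table, with 16 windows. CANNTG was found in 11 of these 16 windows (68.8%) and in 66.2% of the 32851 windows of the table, so the members were near the background. CAGCTG was found in 3 of the 16, the first Pik3r3 window, the fourth Akt2 window and, at 2 places, the second Grb2 window, and in 13.0% of all windows. The Foxo motif TGTTTAC, searched on both strands, was in 3.17% of all windows and in 1 of the 16, the first Akt1 window. The Irs1 and Irs2 windows each held the E-box CACGTG, beginning 115 and 44 bases before the start. The matches are a description of letters in these windows, and binding was not measured.

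Between 11551 and 12469 probes were above background on the control arrays and between 12150 and 12785 on the denervated arrays (detection p under 0.05). The denervated arrays were brighter before normalization, with a 95th percentile of signal of 4000 to 4048 against 2896 to 3022. The 6 arrays shared 1 chip, on which each group occupied its own positions, so that chip position and group cannot be told apart. The genes known to rise after loss of the nerve rose in 6 of 6 cases, while 22.2% of all 8740 genes were called higher. This list and the lists of cell markers were chosen with earlier results of these data known, so such counts are no independent check. Of the 6 genes, the acetylcholine receptor subunits Chrna1 and Chrng rose by 4.45 (log2 change, other probes 1.74 to 4.52) and 4.65. The myogenic factor Myog rose by 3.48 (other probe 1.08). Fbxo32, also among the 6, rose by 1.38 (limma, adjusted p = 0.0114, other probes 1.51 to 1.76). Its call was lost with trend and robust moderation (adjusted p = 0.0774) and in the per-probe test of equal variances (adjusted p = 0.103). The skeletal muscle markers were bright, several near the highest signal of an array (69263 to 71358), so they show the tissue but cannot show whether it changed.

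Akt2 and Pik3r3 rose in denervated muscle, and no rise was called for the other members. Akt2, the Akt isoform best known for insulin-stimulated glucose uptake, rose 7.41-fold by its brighter probe (log2 change 2.89, or 1.88 without background correction) and at least 1.47-fold by its other probe. Pik3r3, the regulatory subunit p55γ, rose 2.08-fold. Grb2 was the 1 member called lower, by 1.30-fold, and that call depended on the scaling of the arrays. No change was called for Pik3r1, Pik3ca, Irs1 or Irs2, and Akt1 was not above background on any array. Of the 11 probes, 9 were kept (detection p under 0.05 on at least 3 of the 6 arrays), and of these 3 were called higher, 1 lower and 5 not called at an adjusted p of 0.05 (limma, Benjamini-Hochberg over all 12546 kept probes). Among all kept probes 21.9% were called higher and 21.0% lower, shares against which the 3 higher probes, 2 of Akt2 and 1 of Pik3r3, and the 1 lower probe of the 9 are read. Akt2 probe 2 was kept through the denervated arrays alone, so its call sets a signal against background. The values of the groups did not overlap for 4 of the 9 probes, against 53.6% of all kept probes. The median change of the 9 probes was 0.15 and that of all kept probes was 0.0025 (log2, denervated minus control).

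**Figure D1:**
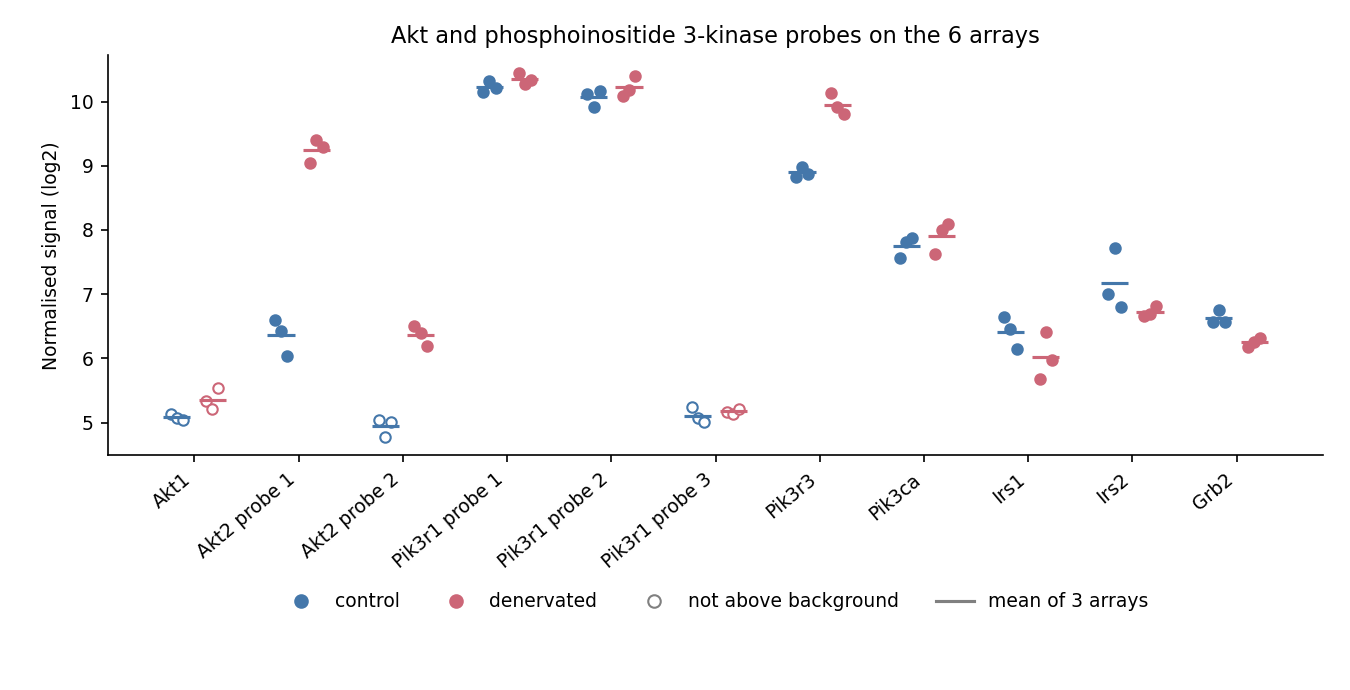
Normalised signal (log2) of the 11 probes on the 3 control and 3 denervated arrays, with the group mean as a bar and open points where the probe was not above background. The denervated points of Akt2 probe 1 lie between 9.04 and 9.41 and its control points between 6.03 and 6.60.

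Irs1, a docking protein of the insulin and IGF-1 receptors, had normalised log2 signals of 6.64, 6.46 and 6.14 in control muscle and 5.67, 6.40 and 5.97 in denervated muscle. The groups overlapped, with denervated sample 2 inside the control range. The change was -0.40 ± 0.20 (SE, n = 3 per group, 95% interval -0.86 to 0.06, adjusted p = 0.145). Irs2, the second docking protein, had signals of 7.001, 7.72 and 6.81 in control and 6.65, 6.69 and 6.82 in denervated muscle. Control sample 2 was the highest of the 6 and control sample 3 lay within the denervated range. The Irs2 change was -0.46 ± 0.22 (95% interval -0.95 to 0.04, adjusted p = 0.124). Irs1 was called lower without denervated sample 2 (-0.59, adjusted p = 0.0459), and Irs2 without control sample 3 (-0.64, adjusted p = 0.0461). Other omissions shrank the changes, Irs1 to -0.23 without denervated sample 1 (adjusted p = 0.413) and Irs2 to -0.18 without control sample 2 (adjusted p = 0.315). The changes of Irs2 and Irs1 differed by -0.06 ± 0.34 (exact permutation test, two-sided, p = 0.90, adjusted over 2 pairs 0.90), a test that gives no p below 0.10 with 3 samples against 3.

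Grb2, the adaptor that couples receptors to Ras, had signals of 6.57, 6.75 and 6.56 in control and 6.18, 6.25 and 6.32 in denervated muscle. All denervated samples lay below all control samples after normalization. The Grb2 change was -0.38 ± 0.11 (95% interval -0.64 to -0.12, adjusted p = 0.0273). The deposited signals before normalization showed no such fall, at 195, 193 and 186 in control and 198, 196 and 220 in denervated muscle. The Grb2 call was lost in 8 of 17 alternatives, and the direction turned to 0.09 (adjusted p = 0.38) on the deposited signals without normalization. Without control sample 2 the adjusted p = 0.0819, without denervated sample 1 it was 0.0894 and without denervated sample 2 it was 0.0758.

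Pik3r1 encodes p85α, the most studied regulatory subunit of Pi3k, and had 3 probes. Pik3r1 probe 1 had signals of 10.15, 10.32 and 10.21 in control and 10.44, 10.28 and 10.34 in denervated muscle. The groups overlapped, and the change was 0.13 ± 0.11 (95% interval -0.13 to 0.39, adjusted p = 0.398). Pik3r1 probe 2, annotated to another RefSeq transcript than the other two, had signals of 10.12, 9.92 and 10.17 in control and 10.08, 10.19 and 10.40 in denervated muscle. These groups overlapped too, and its change was 0.16 ± 0.13 (95% interval -0.14 to 0.46, adjusted p = 0.374). Pik3r1 probe 3 was above background on 0 of 6 arrays, with signals between 5.004 and 5.24, and was not tested. Scaling every array to 1 median moved the 2 tested Pik3r1 probes to 0.39 (adjusted p = 0.0316) and 0.41 (adjusted p = 0.0302), while the same scaling moved the median of all kept probes to 0.205.

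Pik3r3 had signals of 8.83, 8.99 and 8.88 in control and 10.13, 9.92 and 9.81 in denervated muscle. The groups were clearly apart, and the lowest denervated sample lay above the highest control sample. The Pik3r3 change was 1.06 ± 0.12 (95% interval 0.77 to 1.34, adjusted p = 0.000232), and 10.6% of kept probes changed more in either direction. Deposited signals rose from 482, 518 and 504 to 1443, 1230 and 1171. The changes of Pik3r3 and Pik3r1 probe 1 differed by 0.93 ± 0.067 (log2, exact permutation test, two-sided, p = 0.10, the smallest that this test allows with 3 against 3, adjusted over 2 pairs 0.20). The difference was therefore not called, and with 3 samples against 3 this test could call no difference, whatever its size. Its error rests on 3 samples per group.

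Pik3ca, the catalytic subunit p110α that insulin signaling depends on, had signals of 7.57, 7.81 and 7.88 in control and 7.63, 8.001 and 8.09 in denervated muscle. The groups overlapped, and the change was 0.15 ± 0.15 (95% interval -0.20 to 0.51, adjusted p = 0.453). An upward change of the size of the Pik3r3 change lies outside this interval. Pik3ca was called higher on the deposited signals without normalization only (0.47), a setting in which 88.8% of all calls were higher.

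**Figure D2:**
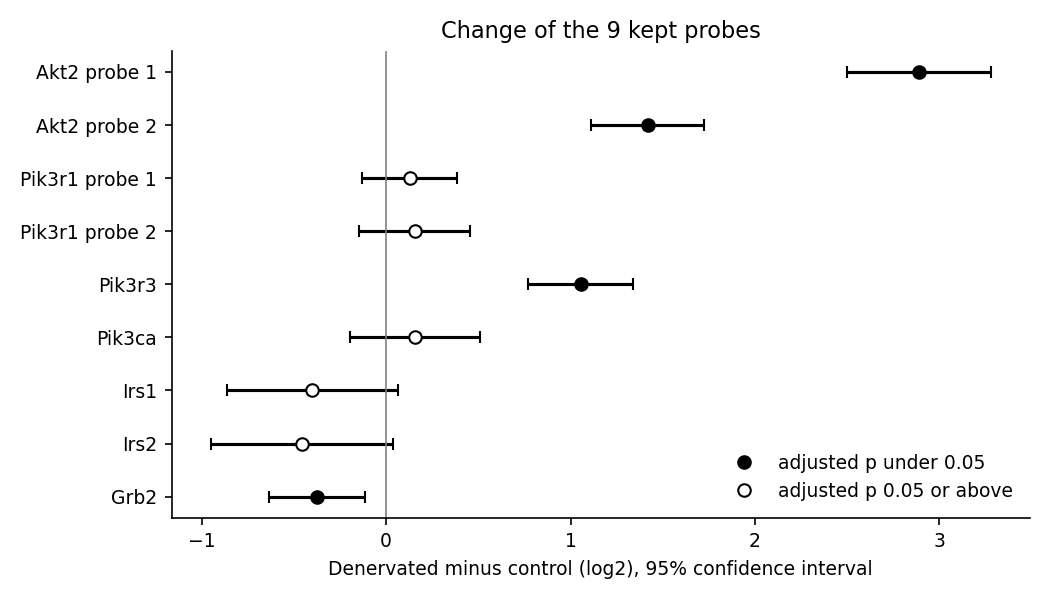
Change of the 9 kept probes (log2, denervated minus control) with the 95% confidence interval, filled where the adjusted p was under 0.05. Akt2 probe 1 at 2.89, Akt2 probe 2 at 1.42 and Pik3r3 at 1.06 lie to the right of 0, and Grb2 at -0.38 lies to the left. Akt2 probe 2 was above background on the denervated arrays only, so its point and interval are fitted values and not a measured size.

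Akt1, the broadly expressed isoform known for growth control, had 1 probe with signals of 5.14, 5.08 and 5.04 in control and 5.33, 5.20 and 5.54 in denervated muscle. It was above background on 0 of 6 arrays, with detection p between 0.0902 and 0.386, so no fold or direction is given and Akt1 mRNA was not measurable by this probe. The difference between the changes of Akt2 and Akt1 was therefore not tested.

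Akt2 probe 1 had signals of 6.60, 6.43 and 6.03 in control and 9.04, 9.41 and 9.29 in denervated muscle. The 3 denervated samples lay far above the 3 control samples, with no overlap. The Akt2 probe 1 change was 2.89 ± 0.17 (95% interval 2.50 to 3.28, adjusted p = 4.86e-06). By size this was change number 93 among the kept probes, and 0.733% of them changed more. The deposited signals were 196, 177 and 162 in control and 744, 889 and 856 in denervated muscle, and the standard error over beads was 4.14% to 6.55% of each signal. The control signals were near background, with detection p between 0.0113 and 0.0163. Without background correction the change was 1.88 and on the authors' quantile-normalized values it was 1.91, so the size, not the direction, depends on how background is treated.

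Akt2 probe 2 had signals of 5.04, 4.77 and 5.01 in control and 6.51, 6.39 and 6.19 in denervated muscle. It was above background on all denervated arrays and on 0 of 3 control arrays, so its fold is a bound. The probe passed the filter through the denervated arrays alone, so its adjusted p sets a signal against background. The Akt2 probe 2 signal was higher in denervated muscle by at least 1.47-fold, the denervated mean set against the higher of the control signal and the dimmest signal above background on each array (adjusted p = 6.67e-05, fitted change 1.42). Deposited signals were 130, 104 and 121 in control and 222, 205 and 211 in denervated muscle. Both probes were higher in denervated muscle. An exact permutation test (two-sided) of the difference between the 2 fitted changes gave p = 0.10, its limit with 3 samples against 3. No difference in size is read from it, since the change of probe 2 is a bound. Whether the probes read different transcripts was not tested.

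**Figure D3:**
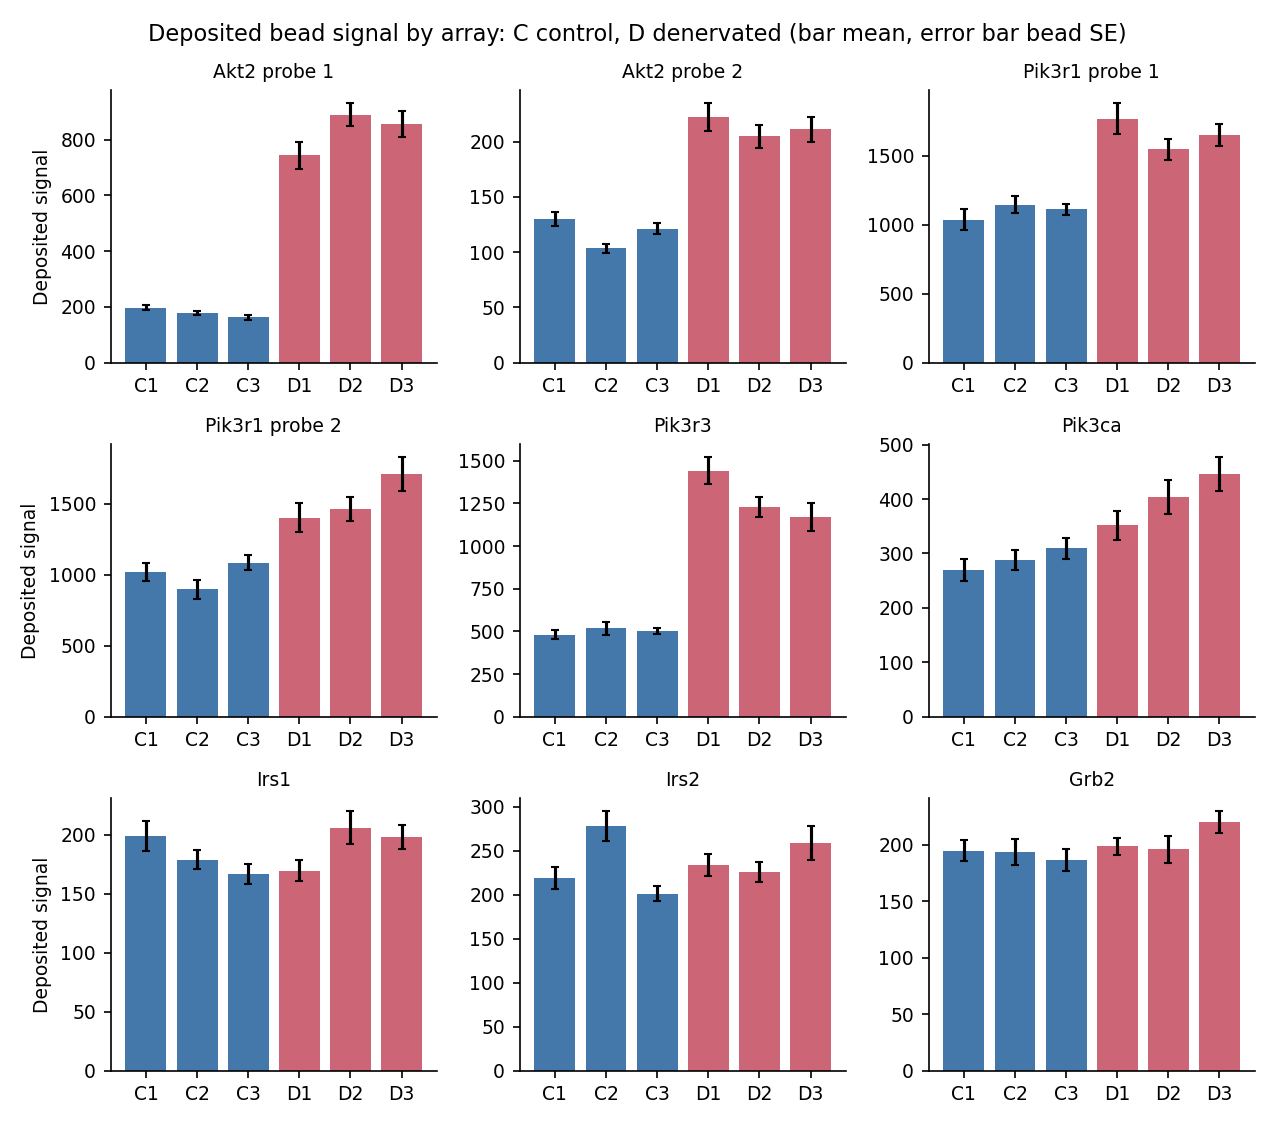
Deposited signal (linear scale) of the 9 kept probes on control arrays C1 to C3 and denervated arrays D1 to D3, with the standard error over beads as error bar. Akt2 probe 1 goes from 162 to 196 in control to 744 to 889 in denervated muscle, and Grb2 lies between 186 and 220 on all 6 arrays.

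The rise of Akt2 probe 1 and Pik3r3 was called under every alternative in which these probes were tested. Akt2 probe 1 ranged from 1.88 to 3.09 and Pik3r3 from 0.90 to 1.35. Akt2 probe 2 was also called each time it was tested (0.66 to 1.51). That probe was kept through the denervated arrays alone, so its calls are not separate support. Scaling every array to 1 median gave Akt2 probe 1 a change of 3.09 and Pik3r3 a change of 1.32. In the strictest filter, detection p under 0.01 on all arrays, both Akt2 probes drop out because of their dim control signals and the Pik3r3 probe is the 1 called of the 5 member probes tested.

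**Figure D4:**
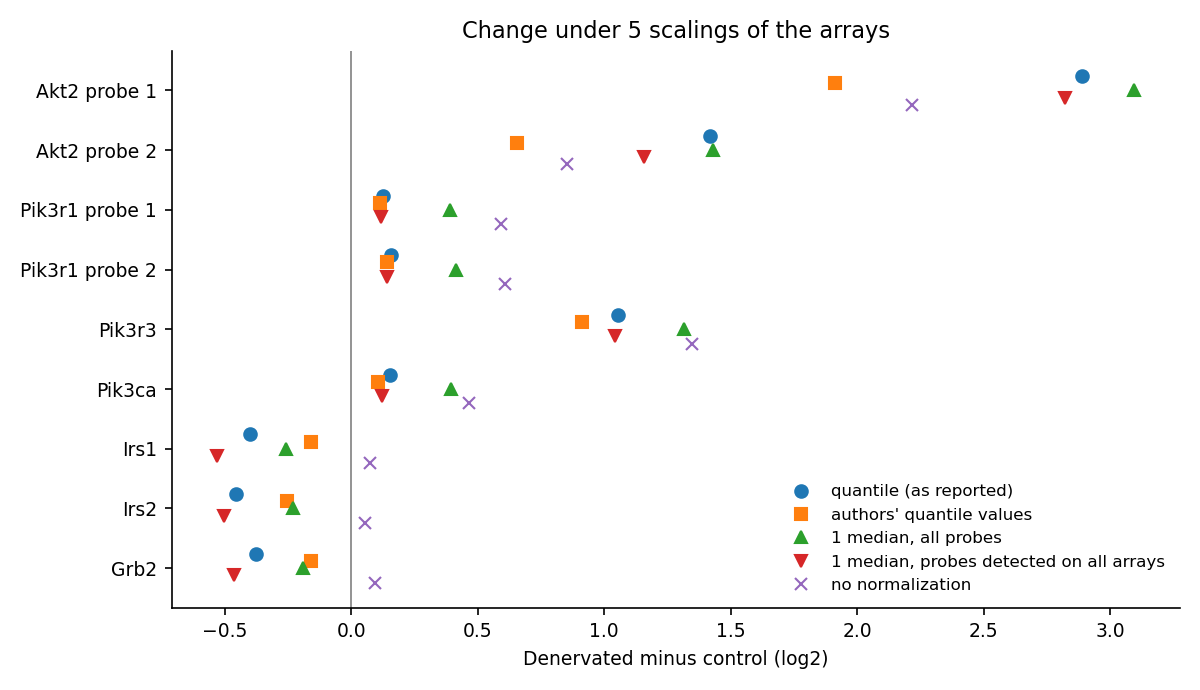
Change of the 9 kept probes (log2, denervated minus control) under 5 scalings of the arrays, 1 marker shape per scaling. Both Akt2 probes and Pik3r3 lie right of 0 under all 5, while Grb2 ranges from -0.46 to 0.09.

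Other genes of the pathway were read from a list of 69 genes that includes the 8 members. Of these, 62 were on the array and 45 had a kept probe, each gene represented by its brightest kept probe. Of the 45, 14 were higher, 5 lower and 26 not called, and without the members 12 of 38 were higher and 4 lower. Among all 8740 genes 22.2% were called higher and 21.6% lower. The median change of the 45 genes was 0.063 and that of all genes was -0.0033.

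At the receptor, the IGF-1 receptor Igf1r rose by 0.62 ± 0.17 (adjusted p = 0.0189) from a dim signal, with a change of 0.25 without background correction. The Igf1r call was lost without denervated sample 3 (adjusted p = 0.0614), on the authors' values (0.24, adjusted p = 0.0548), in the per-probe test of equal variances (adjusted p = 0.0905) and with 1 median over probes detected on all arrays (adjusted p = 0.0627). The insulin receptor Insr was not kept. Among the 5 kept adaptors, Shc1, which passes receptor signals to Grb2, rose by 0.74 ± 0.11 (adjusted p = 0.001). Inhibitors of the receptor moved both ways. Socs3, a cytokine-induced inhibitor that also targets Irs proteins, rose by 2.19 ± 0.34 (adjusted p = 0.00102), and Grb10 rose by 0.58 ± 0.14 (adjusted p = 0.0105). Grb14, which binds the insulin receptor and blocks its kinase, fell by 2.12 ± 0.16 (adjusted p = 1.73e-05), and its other probe changed by -1.58. Without background correction the Grb14 change was -1.20.

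Among the other catalytic subunits, Pik3cg, best known from leukocytes, rose by 1.04 ± 0.13 (adjusted p = 0.000262) from a dim signal. The Pik3cg change was 0.48 without background correction, and its probe was not tested with detection p under 0.01 on all arrays. Pik3cd, also known from leukocytes, fell by 0.45 ± 0.11 (adjusted p = 0.0117), a fall that turned to 0.045 without normalization. The Pik3cd call was also lost without background correction (-0.18, adjusted p = 0.0971), with 1 median (adjusted p = 0.0685), on the authors' values (-0.18, adjusted p = 0.106) and with trend and robust moderation (adjusted p = 0.0638). Macrophage and leukocyte markers rose in 8 of 8 kept cases, with Lyz2 up by 1.46 and C1qb by 1.62, and their summed normalised signal went from 2901 to 3093 in control to 7161 to 8939 in denervated muscle. Of the 8 kept endothelial markers 7 were called lower, among them Pecam1 by 0.58 and Cdh5 by 0.67. The summed signal of the 8 went from 13880 to 16350 in control to 10040 to 10970 in denervated muscle. By the adjusted per-probe test of equal variances 2 of the 8 were called. With arrays shifted to 1 median, Pecam1 (limma, adjusted p = 0.101) and Cdh5 (adjusted p = 0.0639) lost their calls. Of the 5 kept Schwann cell and myelin markers 1 rose and 4 fell, with a summed signal of 5639 to 13560 in control and 2663 to 3272 in denervated muscle. The part of these cells in the changes of Akt2, Pik3r3 and Pik3cg was not tested, and in a whole muscle more cells of a type and more RNA per cell cannot be told apart. Of the 7 kept lipid phosphatases and inhibitors of Pi3k or Akt, 0 were called (limma, 0 at an unadjusted p under 0.05, 0 by the adjusted per-probe test of equal variances), with a median change of -0.16. 

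Among the kinases, Pdpk1, which phosphorylates Akt, rose by 0.75 ± 0.21 (adjusted p = 0.0202, other probe 0.43), and Sgk1, a relative of Akt, rose by 0.70 ± 0.22 (adjusted p = 0.0323). Mlst8, a subunit of the mTOR complexes, fell by 0.42 ± 0.13 (adjusted p = 0.025, other probes -0.69 to -0.42). These 3 calls were lost when single samples were left out, Pdpk1 without control sample 2 (adjusted p = 0.0681) and denervated samples 2 (adjusted p = 0.0693) and 3 (adjusted p = 0.0659), Sgk1 without control samples 2 (adjusted p = 0.0799) and 3 (adjusted p = 0.0978) and denervated sample 1 (adjusted p = 0.107), and Mlst8 without control samples 1 (adjusted p = 0.0653) and 2 (adjusted p = 0.0549) and denervated sample 2 (adjusted p = 0.095). Of the Akt substrates, the Rab GTPase-activating protein Tbc1d1 rose by 1.40 ± 0.14 (adjusted p = 9.34e-05), the transcription factor Foxo1 by 0.85 ± 0.16 (adjusted p = 0.00254) and Mdm2 by 0.69 ± 0.11 (adjusted p = 0.0012), although the other Mdm2 probes changed by -0.31 to 0.93. Akt1s1, an inhibitory subunit of mTORC1, fell by 0.32 ± 0.11 (adjusted p = 0.0498), the call closest to the threshold, and this fall turned to 0.14 without normalization. The Akt1s1 call was also lost without control samples 2 (adjusted p = 0.129) and 3 (adjusted p = 0.105) and without any 1 of the 3 denervated samples (adjusted p = 0.071 to 0.135), and in the replicate block fit (adjusted p = 0.0645).

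**Figure D5:**
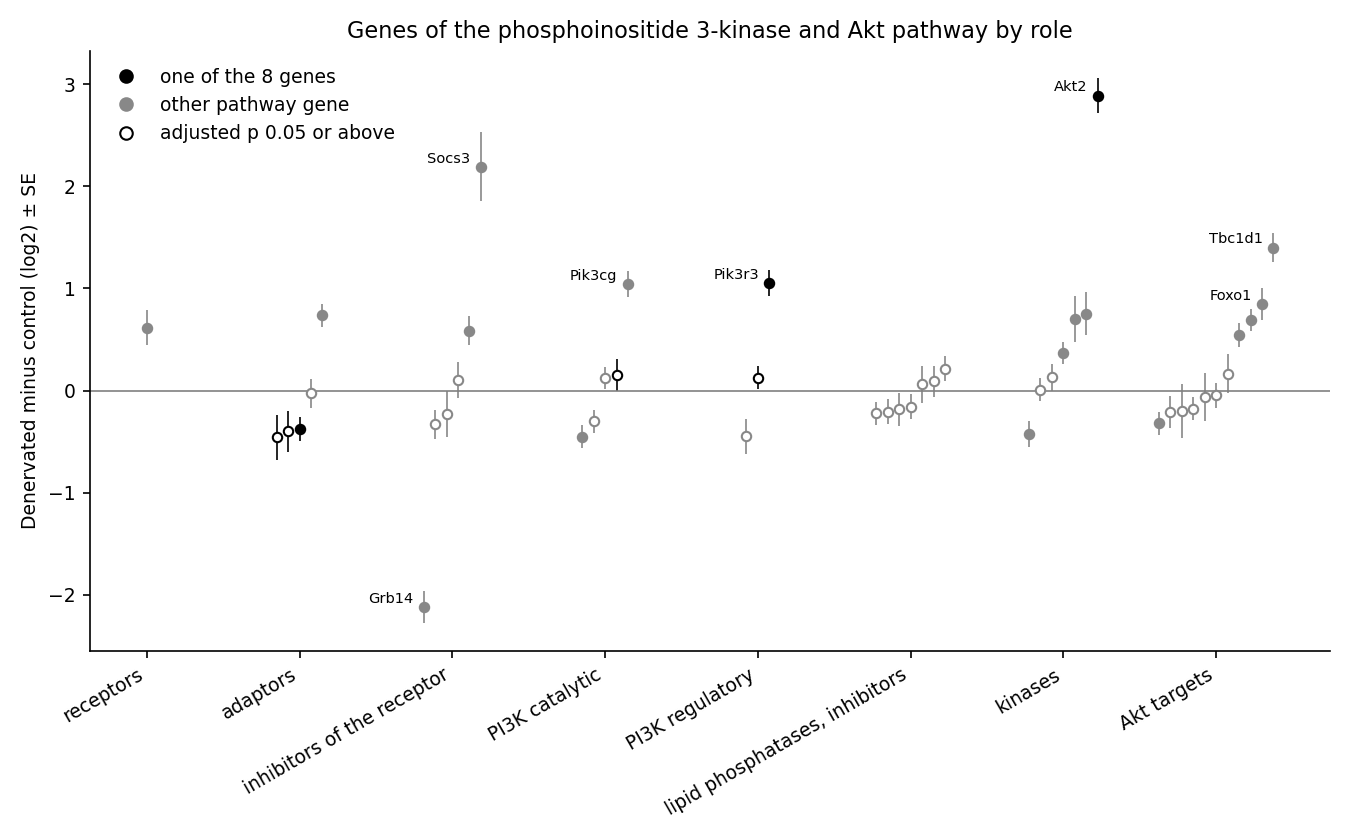
Change (log2, denervated minus control, ± SE) of the 45 kept pathway genes ordered by role, black for the 7 of the 8 followed genes that had a kept probe and grey for the others, filled where the adjusted p was under 0.05. Akt2 at 2.89 is the highest point and Grb14 at -2.12 the lowest.

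By the pattern over the 6 arrays, the genes most like Akt2 probe 1 were Tnfrsf22, Mfsd7a, Tekt1, Eda2r and Lman1l, with a root mean square distance of 0.149 to 0.216 log2 units after centring on the control mean. Tnfrsf22 rose by 3.09, Mfsd7a by 2.70, Tekt1 by 2.85 and Eda2r by 2.87, and Lman1l, above background on 0 of 3 control arrays, was at least 4.55-fold higher. These are the nearest of 8740 genes by a pattern that the comparison itself fixes, and they were given no test of likeness.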

How the data were processed

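Per the labels, total RNA of 6 GA muscles was amplified into biotinylated cRNA and hybridized to Illumina bead arrays, which the authors summarized in GenomeStudio. The deposited table held, per probe and array, a signal intensity on a linear scale, its standard error over beads, the number of beads (another deposited column, about 40 per probe) and a detection p-value against negative control beads. The authors also deposited quantile-normalized intensity values. Intensities were background-corrected from the detection p-values with an offset of 16, quantile-normalized and log2-transformed (neqc, limma 3.58.1, R 4.3.3). The size of the change of a dim probe depends on these settings. Akt2 probe 1 changed by 2.89 with an offset of 16, by 2.46 with an offset of 50 and by 1.88 without background correction. Probes with detection p under 0.05 on at least 3 of 6 arrays were kept (12546), and the 2 groups were compared by lmFit and eBayes with Benjamini-Hochberg adjustment over all of them at 0.05. The general methods of the study list several tests done in R, with a threshold of 0.05 for the arrays, and do not say which test was applied to them. The fit was tested on simulated data.

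In the platform annotation 23978 probes had 1 gene, 1719 had none and 0 had several. Of them 23962 matched a RefSeq table of GRCm38.p6, with 0 symbols changed. No sample column was left unused (0). The members and gene lists were chosen with earlier results of these data known. Named were all member probes, up to 3 called pathway genes per role and direction, the 5 genes nearest to Akt2 in pattern, up to 2 markers per list and denervation genes. The alternatives tried were an offset of 50, no background correction, arrays shifted to 1 median, the authors' normalized values, no filter, detection p under 0.01 on all arrays, the replicate number as a block, trend and robust moderation, a per-probe test of equal variances with and without adjustment, and each array left out. Chosen after seeing the data were 1 median over probes detected on all arrays and the deposited signals with no normalization.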

Additional observations from a re-analysis of the deposited data

How the results depend on the processing

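Of the 9 kept member probes, 3 to 5 were called when each array was left out in turn, and over the same settings 4208 to 4862 of all kept probes (5377 with all arrays) and 14 to 18 pathway genes (19 with all arrays). With detection p under 0.01 on all arrays, 1 of the 5 member probes tested was called, that of Pik3r3, since both Akt2 probes and Grb2 were not tested. On the deposited signals with no normalization 8330 probes and 30 pathway genes were called, and the changes of Irs1 (0.074), Irs2 (0.054), Grb2 (0.094), Pik3cd (0.045), Mlst8 (0.082) and Akt1s1 (0.14) turned upward while the median of all probes was 0.331. The share of calls that were higher went from 51.1% to 88.8% there, to 73.3% with arrays shifted to 1 median (median of all probes 0.205) and to 43.9% with 1 median over probes detected on all arrays (median -0.068). The difference between the changes of Irs2 and Irs1 turned to 0.025 under both 1-median scalings. A shift of a whole array cancels in this difference, so both scalings had to give the same value. When each array was left out the difference ranged from -0.26 to 0.19. The cause of these turns was not tested. Grb2 also lost its call without background correction (-0.17, adjusted p = 0.134), with an offset of 50 (-0.27, adjusted p = 0.0553), with 1 median (-0.19, adjusted p = 0.234), on the authors' values (-0.16, adjusted p = 0.146) and with trend and robust moderation (adjusted p = 0.107). Beside the turns above, of 17 or 18 alternatives the call was lost in 8 for Sgk1 and Akt1s1, in 5 for Pdpk1 and Mlst8, in 4 for Igf1r and Pik3cd and in 2 for Pecam1 and Cdh5. With the replicate number as a block (replicate block), 4 member probes, 5357 of all kept probes and 19 pathway genes were called, and of the named genes Akt1s1 lost its call (adjusted p = 0.0645). Same-numbered samples deviated together with r of -0.017, 0.16 and 0.16, and 4 of 6 arrays correlated best with their own number. These values do not settle whether a number marks a mouse, which the labels do not say. The main fit therefore did not pair the left and right legs, and the replicate block is the alternative that pairs by number. The number of arrays and dim control signals limit the precision for Akt1, Akt2, Irs1 and Grb2.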
